A study of Mus musculus with 16 samples.

Results

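The wild-type response to platelet-derived growth factor BB (PDGF-BB) was taken as the difference between 3 late arrays, from cells treated for 120, 180 and 240 min, and 3 early arrays, from cells at 0, 15 and 30 min. These 6 arrays were chosen by genotype and time from the sample titles and are 6 of the 16 arrays of the series. The series followed mouse aortic smooth muscle cells (MASMC), wild type or Hey2 knockout, over 8 times of PDGF-BB treatment, with 1 array per genotype and time. Cells of both genotypes came from a mixed C57BL/6 and 129SvJ background at passage 10 to 20. They were isolated by enzymatic digestion of minced aortas from which the adventitia had been stripped, and were kept for 48 h in medium with 0.4% fetal calf serum before human PDGF-BB was added at 5 ng/ml. Every wild-type array used here therefore comes from serum-starved cells, and the array at 0 min is the only one without growth factor. The labels give neither the number of isolates nor a course of medium alone, so a change with time in the dish and a change caused by the growth factor cannot be told apart. The 3 arrays of a group are different times and not repeats of one condition, and their spread holds change within the group as well as noise. Each p-value measures a difference against that spread.

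PDGF-BB is a dimeric ligand of receptor tyrosine kinases. Its receptors signal through the Ras and MAP kinase cascade and through PI3-kinase and Akt, which restrain FoxO transcription factors. In vascular smooth muscle it is known as a stimulus to migration and division, and in long exposure as a stimulus that lowers contractile proteins. Growth factors first switch on immediate-early genes, many of them transcription factors that need no new protein synthesis, and the products of these genes act on later, delayed-early genes. Hey2 encodes a repressor of the basic helix-loop-helix class that lies downstream of Notch.

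The properties of the arrays given here bear on what follows. The deposited signals differed in brightness between arrays. Their 2% trimmed mean was 251.3, 198.4 and 80.6 at 0, 15 and 30 min and 274.4, 190.7 and 162.3 at 120, 180 and 240 min, so that the 30 min array was the dimmest. The arrays were quantile normalized, and the correlation of log2 signals between arrays was then 0.978 to 0.987 within the early group, 0.962 to 0.980 within the late group and 0.926 to 0.946 between them. The ratio of the 3′ to the 5′ probe set for Actb, a measure of RNA and labelling quality, was 2.75, 2.41 and 3.88 early and 1.53, 1.84 and 1.78 late, with no overlap. The same ratio for Gapdh was 3.73, 3.22 and 4.49 early and 2.59, 3.21 and 2.99 late. The part of RNA quality in the differences below was not tested.

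The wild-type arrays labelled 60 and 480 min were left out. On a scale over the 4613 genes that changed, with the mean of the early arrays at 0 and that of the late arrays at 1, the array labelled 60 min stood at 0.944 and that labelled 480 min at 0.303. Fos, whose product is a subunit of the AP-1 factor, gave a signal of 212 on the array labelled 60 min and 7700 on that labelled 480 min, against 6380 and 638 on the knockout arrays with the same labels. Jun gave 378 and 3380 in wild type, against 1940 and 363 in the knockout. Nr4a1, an orphan nuclear receptor, and Atoh8 gave the 2 libraries in an order opposite to the knockout as well, at 518 and 7980 against 6450 and 328 for Nr4a1 and at 104 and 834 against 261 and 22.1 for Atoh8. Fosl1 (2390 and 1540 against 1310 and 1150) and Klf15 (18.1 and 83.6 against 92.4 and 127) gave them in the same order as the knockout. No label was changed, and neither array enters a result unless it is named.

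The submitters judged purity by immunostaining of calponin and of the alpha-actin of smooth muscle, and this identity was checked here against marker RNAs. Acta2 (smooth muscle alpha-actin), Tagln, Cnn1, Myl9, Smtn and Actg2 were above the filter on all 6 arrays, with Acta2 at 8413, 8860.3 and 8217 early and 9490.2, 9256 and 9638 late. Myh11, the myosin heavy chain of mature smooth muscle, was near the filter at 27.2, 34.1 and 21.3 early and 24.8, 25.6 and 39.0 late, and Des (desmin) exceeded it on 3 arrays. Of 5 endothelial markers, Pecam1, Cdh5, Vwf and Tie1 stayed below the filter on all arrays. The remaining marker, Kdr, exceeded it on all 6, at 60.9, 54.1 and 65.2 early and 52.5, 53.8 and 26.8 late. The 6 mesothelial and epithelial markers, Msln, Upk3b, Wt1, Krt19, Epcam and Cdh1, exceeded it on all arrays, with summed signals of 1220 to 1530 early and 1650 to 2180 late. Krt19 gave 84.1, 133 and 109 early and 526, 652 and 916 late. The early and late values of Msln, Upk3b, Wt1, Epcam and Cdh1 overlapped.

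The 7 promoters printed here illustrate the regulatory sequences of genes that rose and are named below. They were chosen because each holds a motif of a factor class that this growth factor response is known for, and the capitals mark the matches. For Dusp5, Acta1 and Srf these are CArG boxes, the element bound by serum response factor. The printed run is the 250 bases before the annotated start, 5′ to 3′ on the gene's strand, from RefSeq, build GRCm38.p6. The Dusp5 run lies at chr19:53528895-53529144, plus strand, the Acta1 run at chr8:123894776-123895025, minus strand, and the Srf run at chr17:46556163-46556412, minus strand.
Dusp5: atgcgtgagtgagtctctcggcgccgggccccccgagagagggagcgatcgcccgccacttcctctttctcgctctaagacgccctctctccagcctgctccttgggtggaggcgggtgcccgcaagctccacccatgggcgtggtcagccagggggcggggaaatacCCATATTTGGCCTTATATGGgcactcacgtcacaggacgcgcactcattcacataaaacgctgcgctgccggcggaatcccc
Acta1: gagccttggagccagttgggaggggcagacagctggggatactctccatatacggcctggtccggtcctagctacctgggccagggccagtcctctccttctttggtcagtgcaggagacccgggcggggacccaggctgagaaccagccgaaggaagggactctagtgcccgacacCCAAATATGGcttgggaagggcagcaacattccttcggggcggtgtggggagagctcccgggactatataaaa
Srf: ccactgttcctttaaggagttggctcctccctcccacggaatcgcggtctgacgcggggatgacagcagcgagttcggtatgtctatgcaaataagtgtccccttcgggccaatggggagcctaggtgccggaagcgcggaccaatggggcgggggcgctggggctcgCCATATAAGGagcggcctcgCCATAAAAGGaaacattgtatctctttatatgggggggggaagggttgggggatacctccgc
Dusp5 and Srf hold 2 boxes each and Acta1 holds 1.

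For Errfi1 (chr4:150854820-150855069, plus strand) the capitals mark a cyclic AMP response element, TGACGTCA, which ends 43 bases before the start.
Errfi1: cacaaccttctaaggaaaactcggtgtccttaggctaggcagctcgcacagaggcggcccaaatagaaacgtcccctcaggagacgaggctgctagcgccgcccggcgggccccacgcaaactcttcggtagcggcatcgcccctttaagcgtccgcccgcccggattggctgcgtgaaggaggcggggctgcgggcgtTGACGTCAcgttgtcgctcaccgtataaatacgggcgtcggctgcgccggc
For Il6 (chr5:30012864-30013113, plus strand), Lif (chr11:4257318-4257567, plus strand) and Plaur (chr7:24462233-24462482, plus strand) they mark AP-1 sites, TGANTCA, which end 242, 221 and 62 bases before the start.
Il6: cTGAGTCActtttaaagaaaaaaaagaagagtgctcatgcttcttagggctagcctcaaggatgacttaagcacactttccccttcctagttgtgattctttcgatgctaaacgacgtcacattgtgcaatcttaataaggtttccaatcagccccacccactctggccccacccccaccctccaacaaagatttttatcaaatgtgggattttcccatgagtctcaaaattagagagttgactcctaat
Lif: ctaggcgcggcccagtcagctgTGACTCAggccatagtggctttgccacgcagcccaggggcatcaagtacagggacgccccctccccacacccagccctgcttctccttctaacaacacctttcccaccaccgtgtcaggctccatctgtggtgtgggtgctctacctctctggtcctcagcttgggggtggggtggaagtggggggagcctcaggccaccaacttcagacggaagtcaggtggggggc
Plaur: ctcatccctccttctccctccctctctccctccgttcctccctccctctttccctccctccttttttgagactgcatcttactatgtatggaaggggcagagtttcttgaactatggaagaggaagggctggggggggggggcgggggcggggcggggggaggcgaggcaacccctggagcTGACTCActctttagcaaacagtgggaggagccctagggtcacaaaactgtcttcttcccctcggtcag
Across the tested genes, 10339 of 12816 had a promoter in the RefSeq table, each of 250 bases before and 50 after the start, searched on both strands with each motif counted on its own. An AP-1 site was present in 57 of 565 promoters (10.1%) of genes that rose at least 2-fold, in 42 of 584 (7.19%) of genes that fell at least 2-fold and in 6.42% over all tested genes. A CArG box was present in 14 (2.48%), 9 (1.54%) and 1.6%. The cyclic AMP response element was present in 25 (4.42%), 17 (2.91%) and 3.42%. An E-box, CACGTG, was present in 82 (14.5%), 75 (12.8%) and 11.5%. Over all 32851 promoters in the table the shares were 1.63% for the CArG box, 1.79% for the cyclic AMP response element, 7.81% for the AP-1 site and 7.15% for the E-box. These shares are descriptions and were not tested, and a match is not evidence of a bound site.

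Between the early and the late wild-type arrays, 36% of the genes measured changed in RNA level, with transcription factors, MAP kinase phosphatases, cytokines and genes of ribosome assembly and amino acid supply among those that rose, and FoxO target genes, BMP targets and Hox genes among those that fell. Of 12816 genes tested, 4613 (36%) passed limma's moderated test at a Benjamini-Hochberg adjusted p of 0.05. Of these 1933 were higher late (15.1% of those tested) and 2680 lower (20.9%). At an unadjusted limma p under 0.05, 5890 of the 12816 passed, in either direction. A change of at least 2-fold was called for 1424 genes (11.1%), 700 upward (5.46%) and 724 downward (5.65%). The late arrays were all above the early ones for 2666 genes (20.8%) and all below them for 3829 (29.9%), and 4585 of the 4613 called genes were among these. Differences are given as log2 of late over early with the standard error of the fit, on the scale log2(signal + 4.856), which understates the change of dim genes.

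The count depended on the scaling of the arrays. With the signals as deposited, 208 genes were called, 168 higher and 40 lower, so that 80.8% of calls were upward against 41.9% after quantile normalization. The median difference over all genes was -0.07 after quantile normalization, 0.16 as deposited and -0.17 with trimmed mean scaling. Of 345 genes examined singly 275 were called, and 228 of these kept the call when each array was left out in turn. For the genes described below, calls lost on leaving out an array are given beside the gene, with the adjusted p in brackets, apart from those of Mafg, Fgf18, Tgfb2, Pdgfd, Ddit4, Pgk1, Tpi1, Myl6, Fbln5, Dll1, Lfng, Grem1 and Cdkn2c, which were lost without 1 or more arrays; with trimmed mean scaling the calls of Tgfb2, Tpi1, Myl6 and Lfng were lost as well. Calls rest on the brightest probe set of a gene. No other tested probe set of the gene was called for Acta2, Arntl, Dcn, Fbln5, Hivep3, Insr, Kitl, Mafg, Mxd1, Mxi1, Mylk, Nfkb2, Notch1, Pdgfra, Per2, Pfkfb3, Smad7, Tgfb1, Tgfb2, Tsc1 and Txnip.

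The largest increase was that of Fosl1, which encodes the AP-1 subunit Fra-1. Its signal was 22.0, 20.9 and 89.1 at 0, 15 and 30 min and 3569, 3036 and 2825 at 120, 180 and 240 min. The late arrays were close together and far above the early ones, a log2 difference of 6.28 ± 0.44 (adjusted p = 4.85e-05). Nr4a3, an orphan nuclear receptor, gave 3.04, 1.02 and 48.2 early and 1061, 488 and 246 late (5.24 ± 0.81, adjusted p = 0.00178). Arc, known best as a synaptic immediate-early gene, gave 1.76, 4.28 and 212 early and 1578, 562 and 445 late (4.97 ± 1.17, adjusted p = 0.0113). Both were near the bottom of the scale at 0 and 15 min, stood highest at 120 min and were lower by 240 min.

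Olr1, the scavenger receptor for oxidized low-density lipoprotein, gave 17.4, 9.97 and 24.3 early and 612, 547 and 341 late (4.53 ± 0.30). Sphk1, which makes sphingosine 1-phosphate, gave 43.9, 44.9 and 64.8 early and 1109.7, 1569 and 966 late (4.43 ± 0.22). Hivep3, a zinc finger protein, gave 105, 122 and 114 early and 2187, 2957 and 2558 late (4.43 ± 0.14). The highest late value was at 120 min for Olr1 and at 180 min for Sphk1 and Hivep3. Pkp1, which encodes the desmosomal protein plakophilin 1, gave 113, 99.5 and 51.5 early and 1059.7, 2153 and 2327 late (4.31 ± 0.35). Noct, an immediate-early gene also known as nocturnin, gave 128, 135 and 278 early and 4374, 3238 and 2541 late (4.25 ± 0.30). Serpinb2, the plasminogen activator inhibitor 2, was below the filter of 16 on all 3 early arrays, at 6.35, 1.86 and 6.44, and gave 138, 193 and 289 late, which makes it at least 12.3-fold higher against that filter. Adjusted p-values of these 6 genes ranged from 4.50e-06 to 9.95e-05.

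The largest decrease was that of Atoh8, a basic helix-loop-helix factor known as a target of BMP signalling. Its signal was 1219, 1341 and 1248 early and 93.4, 8.33 and 14.5 late, a log2 difference of -5.44 ± 0.62 (adjusted p = 4.46e-04). The 2 latest arrays were below the filter. Klf15, a Krüppel-like factor, gave 408, 448 and 425 early and 4.05, 8.82 and 26.2 late (-4.79 ± 0.40, adjusted p = 1.09e-04). It was lowest at 120 min. Dkk1, a secreted Wnt inhibitor, gave 419, 354 and 339.7 early and 25.5, 28.2 and 25.2 late (-3.59 ± 0.17).

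Pik3ip1, an inhibitor of PI3-kinase, gave 980.5, 864 and 919 early and 99.1, 70.4 and 80.8 late (-3.40 ± 0.16). Ppp1r3c, a glycogen-targeting subunit of protein phosphatase 1, gave 1778, 1595 and 1192 early and 91.2, 257 and 119 late (-3.37 ± 0.34). Ppm1k, the mitochondrial phosphatase of branched-chain amino acid breakdown, gave 576, 634 and 596 early and 46.0, 47.2 and 74.7 late (-3.35 ± 0.20). The early values of each lay within a narrow band, and all late values were below it. Klhl24, a Kelch-like protein, gave 1757, 1663 and 1865 early and 545, 144 and 119.9 late (-3.02 ± 0.47), with the value at 120 min between the early level and that of the later arrays. Gprin3, Shisa2 and Etfbkmt completed the 10 largest decreases, at -3.32, -3.29 and -3.12.

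**Figure D1:**
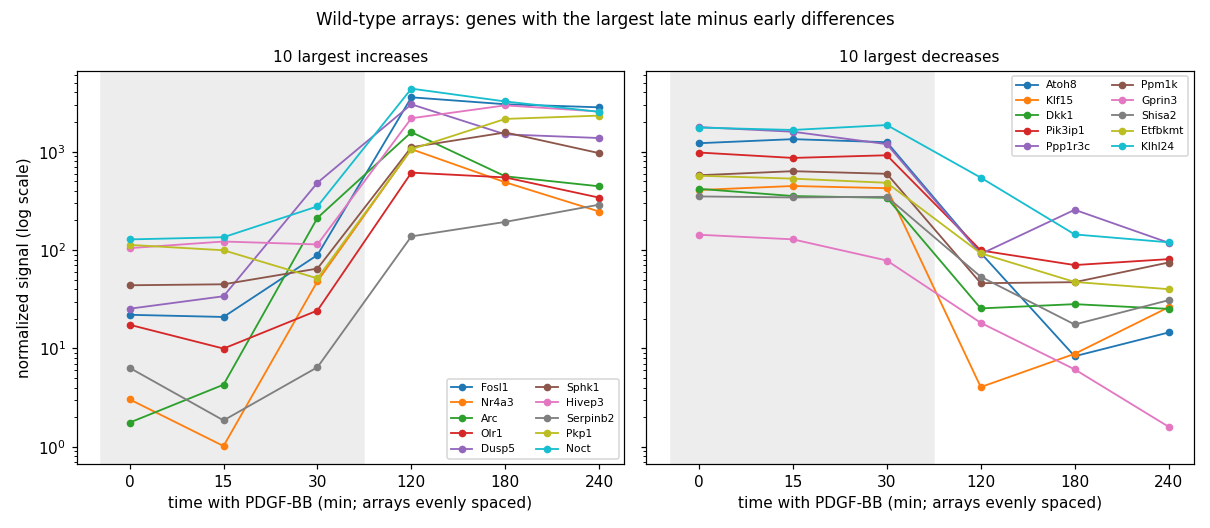
Normalized signal (vertical axis, log scale, arbitrary units) of the 10 genes with the largest increases and the 10 with the largest decreases on each of the 6 wild-type arrays, 1 point per array, with the early arrays on a grey ground. Horizontal positions are evenly spaced and are not to scale in time. Fosl1 runs from 22.0, 20.9 and 89.1 on the early arrays to 3569, 3036 and 2825 on the late ones. The genes were taken only from called genes whose early and late points do not overlap.

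The time of the extreme value differed between genes. Of the 700 genes that rose at least 2-fold, 169 were highest at 120 min, 179 at 180 min and 352 at 240 min. Of the 724 that fell at least 2-fold, 189 were lowest at 120 min, 192 at 180 min and 343 at 240 min. Between 120 and 240 min, 27 of the risen genes had come back down by more than 2-fold and 100 had gone up by more than 2-fold again. With 1 array per time, these orders have no replicate check.

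Movement by 30 min was counted only among called genes and only in the direction of their late difference. Fallen genes that were first higher, and genes that did not pass the test, are therefore not in the counts. At 30 min, 26 of the 700 risen genes were already more than 2-fold above the mean of 0 and 15 min, against 3 of the 724 fallen genes below it. The 26 included Arc, Dusp5, Nr4a3, Fosl1, Errfi1, Ptgs2, Nfil3, Ereg, Il6, Lif, Ccl2 and Myc. Nppb, which encodes B-type natriuretic peptide, was also among them and rose by 2.89 on the log2 scale.

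The immediate-early transcription factors had in many cases risen within the early group. Of 61 tested immediate-early genes in 3 lists, 23 were more than 2-fold higher at 30 min than at 0 min. Of these 16 did not pass the test. The share of all tested genes that were so was not counted, and the 30 min array was the dimmest. Fos gave 452, 4799 and 8583 at 0, 15 and 30 min and 1301, 1179 and 808 at 120, 180 and 240 min. Jun, its partner in AP-1, gave 166, 789 and 3072 early and 727, 261 and 219.8 late. Both were highest at 30 min, and the late values lay inside the range of the early ones (log2 differences -1.30 ± 0.89 and -1.08 ± 0.90, adjusted p = 0.292 and 0.385).

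Without the 0 min array both were called lower late, at -2.57 (adjusted p = 0.0012) and -2.15 (adjusted p = 0.046). Egr1, a zinc finger factor, gave 1824, 7028 and 10020.1 early and 7315, 7964 and 8459 late, so that its late values lay between those at 15 and 30 min (0.65 ± 0.51, adjusted p = 0.362). Egr2 gave 16.1, 181 and 3408 early and 2641, 1632 and 1435 late, and Egr3 gave 41.3, 132 and 3087 early and 4012, 1589.7 and 2186 late. Without the 30 min array, Egr2 and Egr3 were called higher, at 4.88 (adjusted p = 0.0065) and 4.93 (adjusted p = 0.0013).

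Nr4a1, an orphan receptor of the same family as Nr4a3, gave 112, 788 and 4987 early and 5615, 1685 and 1429 late (1.63 ± 1.15, adjusted p = 0.305; 2.97 with adjusted p = 0.04 without the 30 min array). Fosb gave 3.62, 57.1 and 637 early and 1889, 369 and 148 late (adjusted p = 0.165; 4.38 with adjusted p = 0.03 without the 30 min array). Atf3, a stress-response factor, gave 157, 534 and 5467 early and 5307, 1418 and 727 late. Each of the 3 had its 30 min value near or inside the late range. Junb gave 164, 660.4 and 1452 early and 1532, 847 and 999 late, and Ier2 gave 449, 2350.0 and 5742 early and 2112, 2265 and 2333 late, both overlapping.

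In the AP-1 and CREB family, 5 of 16 tested members rose and 1 fell, beside 15.1% and 20.9% of all genes; the median was 0.68. Apart from Fosl1, the risen members were Fosl2, Maff, Mafk and Mafg; Fosl1 and Maff were already more than 2-fold up at 30 min. Fosl2, the Fra-2 subunit, gave 1811, 1962 and 2924 early and 4968, 4055 and 3199 late (0.88 ± 0.20, adjusted p = 0.0102). Maf fell, from 1147, 1110.2 and 1379 to 558, 642 and 663 (-0.96 ± 0.13). Among Egr, Nr4a and Klf factors, 8 of 20 (40%) rose and 2 (10%) fell, beside the same shares of all genes, with a median of 0.69.

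Klf10, a target of TGF-beta and other growth signals, gave 243, 256 and 365 early and 2511, 1576 and 1628 late (2.70 ± 0.22, adjusted p = 9.25e-05). Klf5, a factor linked to smooth muscle growth, gave 727, 663 and 773 early and 1881, 1731 and 1311 late (1.17 ± 0.14). Srf itself gave 540.1, 607 and 981 early and 2408, 1659 and 1441 late (1.38 ± 0.25, adjusted p = 0.00348). The 3 genes were highest at 120 min, with no overlap between groups. Nab2, a corepressor of Egr factors, rose by 1.30, and Klf11 fell, to 52.6, 26.5 and 47.7 from 99.1, 157 and 119.9. Klf2, Klf4 and Klf6 gave differences of -0.20, 0.23 and 0.28 and did not pass; without the 30 min array Klf6 did, at 0.49 (adjusted p = 0.019), and another Klf6 probe set was called at 1.13 (adjusted p = 0.0323).

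Of 25 other immediate-early genes, 12 (48%) rose and 1 (4%) fell, beside 15.1% and 20.9% of all genes, with a median of 0.97. Homer1, a postsynaptic scaffold gene with an activity-induced short form, gave 27.4, 36.6 and 23.0 early and 1199.9, 294 and 167 late (3.56 ± 0.60). Bhlhe40, a repressor that acts in the clock, gave 474, 426 and 761 early and 2420.3, 1674 and 1626 late (1.80 ± 0.23). Vegfa, the endothelial growth factor, gave 386, 419 and 401 early and 1158, 1369 and 1326 late (1.66 ± 0.11, adjusted p = 4.58e-05). The first 2 were highest at 120 min, while Vegfa was about level over the late arrays.

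**Figure D2:**
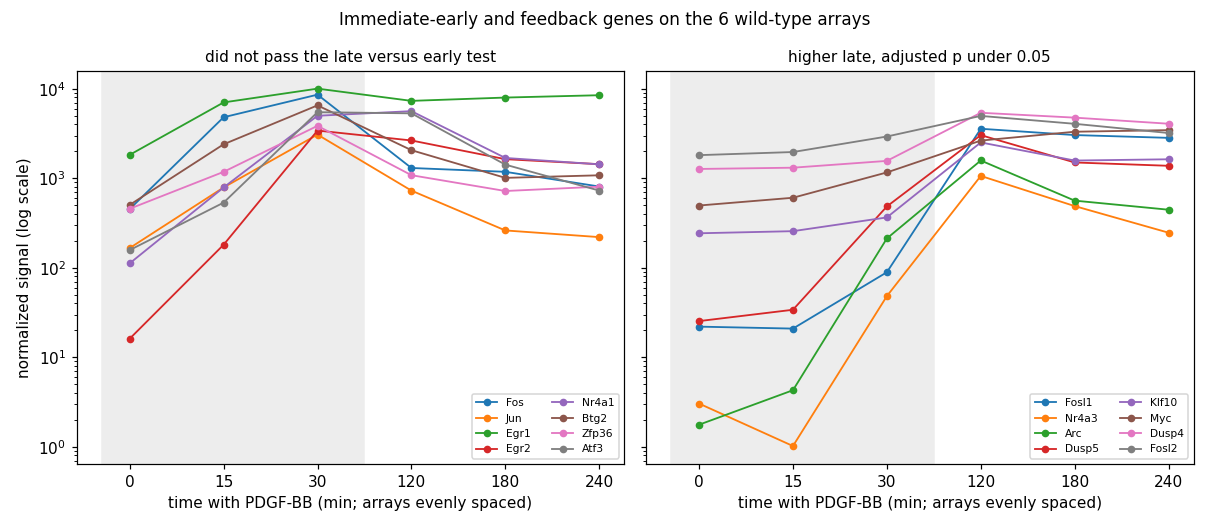
Normalized signal (vertical axis, log scale, arbitrary units) of 8 genes that did not pass the late versus early test and of 8 that rose, on each of the 6 wild-type arrays (1 point per array, early arrays on a grey ground, times evenly spaced). Fos peaks at 8583 at 30 min and is at 808 by 240 min, while Fosl1 is at 89.1 at 30 min and 3569 at 120 min.

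Most feedback inhibitors of MAP kinase signalling rose. Of 20 tested members 14 (70%) rose and 1 (5%) fell, beside 15.1% and 20.9% of all genes. The median was 1.09, and 11 were up at least 2-fold, beside 5.46% of all genes. Dusp5, a nuclear phosphatase of ERK whose promoter with 2 CArG boxes is printed above, gave 25.3, 33.9 and 484 early and 3029.8, 1499.8 and 1377 late (4.48 ± 0.91, adjusted p = 0.00618). It had begun to climb at 30 min and was highest at 120 min. Dusp4, a nuclear phosphatase of the same class, gave 1269, 1311 and 1561 early and 5385, 4752 and 4062 late (1.77 ± 0.12). Dusp6, the cytoplasmic ERK phosphatase, gave 579.8, 659.9 and 1168 early and 1419.6, 1629 and 2049.8 late (1.13 ± 0.25).

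The 2 differed in order, with Dusp4 highest at 120 min and Dusp6 at 240 min. Spry4, a Sprouty inhibitor of receptor tyrosine kinase signalling, gave 71.4, 57.6 and 86.4 early and 279, 394 and 404 late (2.25 ± 0.21, adjusted p = 1.74e-04). Spry2 gave 915, 1190.1 and 1669 early and 1514, 1550.0 and 1862 late and did not pass (adjusted p = 0.132); without the 30 min array it did (adjusted p = 0.022), and another probe set was called at 0.98 (adjusted p = 0.0181). Errfi1, an inhibitor of the EGF receptor with the cyclic AMP response element shown above, gave 588, 613 and 2548 early and 8968, 7818 and 8375 late (3.10 ± 0.48).

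Errfi1 was far above its starting level on all late arrays. Dusp1, the phosphatase of JNK and p38, was the member that fell: it gave 3006, 6010.1 and 8276 early and 2671, 2378 and 2111 late (-1.16 ± 0.31, adjusted p = 0.0187). It was highest at 30 min and its late values were below its 0 min value. The call was lost without the 15 min (adjusted p = 0.067), 30 min (0.053) or 180 min (0.063) array. Dusp10, Dusp14, Dusp7 and the receptor inhibitor Lrig1 rose by 1.68, 1.94, 1.62 and 1.75.

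Ligands that act on receptors of neighbouring cells were among the stronger increases. Of 31 tested growth factors and cytokines 14 (45.2%) rose and 5 (16.1%) fell, beside 15.1% and 20.9% of all genes. The median was 0.60. Pdgfb, which encodes the chain of the added ligand itself, gave 37.0, 23.9 and 31.6 early and 513, 620.0 and 513 late (3.97 ± 0.19, adjusted p = 1.12e-05). The added protein was human and carries no mouse RNA. Pdgfa gave 622, 536 and 536 early and 1366, 1619 and 1438 late (1.38 ± 0.11). Both were raised about evenly over the 3 late times.

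The EGF receptor ligands Ereg (epiregulin) and Hbegf (heparin-binding EGF) both rose. Ereg gave 176, 228 and 519 early and 3839.6, 3734 and 4291 late (3.82 ± 0.33), and Hbegf gave 462, 507 and 636 early and 5188, 4914 and 4222 late (3.15 ± 0.13, adjusted p = 7.44e-06). The cytokines Lif and Il6, which signal through gp130 and whose promoters are printed above, also rose. Lif gave 51.3, 81.7 and 167 early and 874, 1151 and 1147 late (3.48 ± 0.35), and Il6 gave 32.4, 42.0 and 99.2 early and 994, 753 and 558 late (3.73 ± 0.37). Il6 was highest at 120 min and Lif at 180 and 240 min.

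Il11, another ligand of this family, was below the filter on the early arrays and gave 43.4, 37.2 and 45.0 late, at least 2.61-fold above the filter. Clcf1, also a gp130 ligand, gave 267, 244 and 428 early and 963, 1064 and 1008 late (1.72 ± 0.20). Inhba, the activin A subunit, gave 627, 533 and 481 early and 2571, 3548 and 2196 late (2.31 ± 0.18). Csf1, the macrophage growth factor, and Tgfb1 rose by 1.33 and 1.24. The fallen members were Edn1 (endothelin 1), Fgf18, Tgfb2, Pdgfd and Kitl. Edn1 gave 274, 327 and 535 early and 101, 134 and 103 late (-1.66 ± 0.25), with its highest value at 30 min.

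Of 24 chemokines and inflammatory genes 11 (45.8%) rose and 4 (16.7%) fell, beside 15.1% and 20.9% of all genes, with a median of 0.58. Ccl2 (MCP-1), which attracts monocytes, gave 162, 203 and 435 early and 1269, 1511 and 2018 late (2.67 ± 0.33, adjusted p = 6.87e-04). Its neighbour in function Ccl7 gave 119.5, 155 and 304 early and 425, 545 and 633 late (1.54 ± 0.31). Both climbed through the late times to a maximum at 240 min. Ptgs2 (cyclooxygenase 2) gave 214, 608 and 2695 early and 5052, 4279.7 and 4677 late (2.71 ± 0.72, adjusted p = 0.0192); the call was lost without the 15 min (0.063) or the 180 min (0.06) array.

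The NF-kappaB subunits Nfkb2 and Relb rose by 1.73 and 1.94, and the regulators Bcl3 and Tnfaip3 by 2.04 and 1.30. Relb gave 145, 112 and 95.6 early and 463, 449.9 and 462 late, without overlap. The chemokines Cxcl1 and Cxcl12 were lower late. Cxcl1 gave 1909, 2174 and 3027 early and 869.7, 1526 and 1623 late (-0.85 ± 0.25, adjusted p = 0.0280), and the call was lost without the 15 min (0.064) or the 30 min (0.1) array. Cxcl12 fell by 0.33 and Irf1 by 0.98.

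Several receptors and relays of the pathway itself were lower late. Of 28 tested genes of PDGF, insulin and PI3-kinase signalling, 14 (50%) fell and 5 (17.9%) rose, with a median of -0.46. Over all genes 20.9% fell and 15.1% rose, so the share that rose was near that of all genes. Pdgfra, the alpha receptor, gave 353, 334 and 272 early and 36.5, 74.6 and 50.9 late (-2.51 ± 0.25, adjusted p = 2.16e-04). Pdgfrb, the main PDGF-BB receptor of smooth muscle, gave 4502, 4209 and 4599 early and 2897, 3087 and 3110.2 late (-0.55 ± 0.07, adjusted p = 5.77e-04). Neither receptor's groups overlapped. The Pdgfra fall rests on 1 of 3 tested probe sets, and the other two gave -0.63 (adjusted p = 0.233) and -0.21 (adjusted p = 0.667).

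Gab1, a docking protein for PI3-kinase, gave 2254, 2253 and 2113 early and 482, 349.6 and 293 late (-2.57 ± 0.17). Insr, the insulin receptor, gave 615, 609 and 501 early and 268, 187 and 208 late (-1.37 ± 0.17). Irs1, its main substrate, gave 1502, 1590.5 and 1235 early and 167, 578 and 816 late (-1.73 ± 0.48). Irs1 was lowest at 120 min and had partly returned by 240 min; its call was lost without the 0 min (0.069), 15 min (0.074) or 30 min (0.056) array. Pik3r1, the regulatory subunit p85 alpha, gave 1459, 1373 and 1515 early and 642, 594 and 558 late (-1.27 ± 0.10).

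Deptor and Tsc1, both restraints on mTOR, fell by 1.05 and 0.80. Ddit4, another such restraint, rose by 0.72. Igf1r fell by 0.45 on its brightest probe set, but another probe set of that gene was called in the opposite direction, at 0.98. It was the only 1 of 441 named or listed genes with several tested probe sets for which this was so.

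Most of the genes listed as FoxO targets or genes of growth arrest fell. Of 35 tested members 22 (62.9%) fell and 1 (2.86%) rose, beside 20.9% and 15.1% of all genes. The median was -0.97, and 15 fell at least 2-fold, beside 5.65% of all genes. Ccng2 (cyclin G2) gave 1849.8, 1904 and 1688 early and 269.6, 225 and 231 late (-2.88 ± 0.12, adjusted p = 6.90e-06). Sesn1 (sestrin 1) gave 1561, 1444 and 1428 early and 234, 177 and 171 late (-2.91 ± 0.14). Trp53inp1, a stress-induced regulator of p53 and autophagy, gave 1968, 2097 and 2154 early and 352, 231 and 464 late (-2.61 ± 0.22). These 3 genes had reached their low level by 120 min.

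Txnip, which restrains glucose uptake, gave 1648, 1496 and 1466 early and 199, 477 and 669.9 late (-1.93 ± 0.37). It was lowest at 120 min and higher again by 240 min. Fbxo32 (atrogin-1) gave 769, 664 and 726 early and 159, 253 and 220.0 late (-1.77 ± 0.18). The CDK inhibitor Cdkn1b (p27) gave 1078, 990.1 and 881 early and 500.3, 571 and 436 late (-0.97 ± 0.14, adjusted p = 0.00122). The FoxO genes Foxo3 and Foxo1 fell by 0.97 and 0.65, Foxo1 without passing when the 30 min array was left out (adjusted p = 0.055). Bcl6 gave 719, 726 and 699 early and 709, 984 and 700.1 late and did not pass.

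Members of the Myc network were called in both directions. Myc gave 496, 605 and 1161 early and 2634, 3307 and 3445 late (2.14 ± 0.28, adjusted p = 7.91e-04), having begun to rise by 30 min. Mycl was below the filter early and gave 35.1, 59.3 and 61.5 late, at least 3.15-fold above it. The antagonists Mxd4, Mxi1 and Mxd1, which compete with Myc for Max, fell by 1.69, 1.40 and 1.31. Of the 12 members tested, 3 (25%) rose and 3 (25%) fell, beside 15.1% and 20.9% of all genes, so the share that fell was near that of all genes.

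Ribosome assembly was the list with the largest share of risen members. Of 44 tested genes 39 (88.6%) rose and 0 fell, beside 15.1% and 20.9% of all genes. The median was 1.22, and 28 rose at least 2-fold, beside 5.46% of all genes. At an unadjusted limma p under 0.05, 1 was lower. Rrp9, of the small nucleolar ribonucleoproteins, gave 116, 95.9 and 76.1 early and 242, 491 and 655 late (2.12 ± 0.33). Polr1b, a subunit of RNA polymerase I, gave 134, 109.8 and 106 early and 278, 526 and 555 late (1.86 ± 0.26). Nop58, a core protein of box C/D particles, gave 218, 366 and 289 early and 1237, 905 and 1168 late (1.92 ± 0.20). For 33 of the 39 risen genes the highest array was that of 240 min.

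Tsr1, a factor of small subunit maturation, gave 1245, 1323 and 1303 early and 3737, 4361 and 3928 late (1.63 ± 0.08, adjusted p = 1.46e-05). Fbl, the methyltransferase fibrillarin, gave 1793, 1815 and 1513 early and 2380.2, 3032 and 3442 late (0.78 ± 0.14). Npm1 (nucleophosmin) gave 7359.8, 6987 and 6999.8 early and 6932, 7069.6 and 7315 late and did not pass. Genes for the proteins of the finished ribosome were a different case. Of 22 cytosolic ribosomal protein genes 0 rose and 1 (4.55%), Rpl37, fell, beside 15.1% and 20.9% of all genes. Their median was 0.01. Against the median of all genes that median was 0.08 higher after quantile normalization and lower under both other scalings. At an unadjusted p under 0.05, 1 of the 22 was higher and 2 were lower. The Rpl37 call was lost with trimmed mean scaling (adjusted p = 0.072) and without the 0 (0.1), 15 (0.09), 30 (0.098) or 180 min (0.053) array.

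Genes controlled by ATF4, with amino acid transport, one-carbon metabolism and tRNA charging, rose almost as often. Of 42 tested members 31 (73.8%) rose and 2 (4.76%) fell, beside 15.1% and 20.9% of all genes. The median was 0.78, and 28 of the 31 were highest at 240 min. Atf4 itself gave 2378, 2834 and 3843 early and 5566, 6174 and 6355 late (1.02 ± 0.15, adjusted p = 0.00151). Mthfd2, the mitochondrial folate enzyme, gave 159, 123 and 194 early and 984, 2375 and 3270.2 late (3.62 ± 0.39). Slc7a5, the transporter of large neutral amino acids, gave 159, 189 and 203 early and 834, 1682 and 2030.4 late (2.92 ± 0.29).

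Both climbed from array to array through the late group. Asns (asparagine synthetase) gave 429.6, 477 and 461 early and 1199, 2138 and 3724 late (2.21 ± 0.33). Chac1, which degrades glutathione, and Trib3, a pseudokinase that feeds back on ATF4, rose by 2.81 and 2.75. Slc7a1, a transporter of cationic amino acids, gave 1036, 1095 and 1104 early and 4633, 5058 and 5213 late (2.20 ± 0.08, adjusted p = 5.41e-06). The tRNA synthetase genes Cars, Tars, Gars, Aars, Nars and Eprs rose by 1.34, 1.04, 0.86, 0.84, 0.72 and 0.71.

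Metabolic genes outside this group rose in part. Of 29 genes of glucose transport, glycolysis and hypoxia 12 (41.4%) rose and 3 (10.3%) fell, beside 15.1% and 20.9% of all genes. The median was 0.25. Hk2 (hexokinase 2) gave 488, 517 and 579 early and 3224, 3344 and 3597 late (2.67 ± 0.10, adjusted p = 5.76e-06). Slc2a1, the glucose transporter GLUT1, gave 1515, 1563 and 1803 early and 3979.9, 4407 and 4067 late (1.35 ± 0.09). Pfkfb3, which makes an activator of phosphofructokinase, gave 148, 107 and 135 early and 595, 540.2 and 453 late (1.99 ± 0.17). The 3 were clear of their early range on every late array.

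Ldha rose by 0.59, Pgk1 by 0.35 and Tpi1 by 0.23, while the muscle phosphofructokinase Pfkm fell by 1.09, a call lost without the 15 (0.05) or 180 min (0.051) array. Hif1a gave 0.01 and did not pass on its brightest probe set, while another gave 0.58 (adjusted p = 0.00332). Of 25 genes of cholesterol and fatty acid synthesis 9 (36%) rose and 1 (4%) fell, beside 15.1% and 20.9% of all genes. The median was 0.24. Msmo1, a sterol C4 oxidase, gave 831, 901 and 924 early and 1812, 2144 and 2828 late (1.33 ± 0.15), and Idi1 rose by 1.15. Sqle and Insig1 gave 0.07 and -0.05, neither of which passed. Of 26 genes of ER stress and chaperones 9 (34.6%) rose and 1 (3.85%) fell, beside the same shares of all genes. Hspa1a rose by 1.57 (adjusted p = 0.053 without the 180 min array) and Creld2 by 0.87. Hspa5 (BiP) rose by 0.49, a call that was lost with trimmed mean scaling (adjusted p = 0.423).

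More contractile genes of smooth muscle rose than fell up to 240 min. Of 22 tested members 12 (54.5%) rose and 2 (9.09%) fell, beside 15.1% and 20.9% of all genes, with a median of 0.33. Cnn1 (calponin) gave 41.4, 60.2 and 83.9 early and 271, 256 and 229 late (1.99 ± 0.24, adjusted p = 5.77e-04). Actg2, the enteric gamma-actin, gave 121, 155 and 166 early and 490.2, 495 and 597 late (1.81 ± 0.16). Tagln (SM22 alpha) gave 2528, 2806 and 2615 early and 3954, 4354 and 4364 late (0.67 ± 0.07). In all 3 every late array exceeded every early one.

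Smtn (smoothelin) gave 241, 324 and 238 early and 589.7, 590.3 and 507 late (1.07 ± 0.16). Acta2 rose by 0.16, but the call was lost without the 0 min (0.098), 30 min (0.07), 180 min (0.063) or 240 min (0.066) array and the sign turned with trimmed mean scaling, at -0.17. Mylk, the myosin light chain kinase, fell: it gave 627, 597 and 704 early and 434, 288 and 227 late (-1.06 ± 0.22). Myl6 fell by 0.57, and Myh11 gave 0.09 and did not pass.

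Targets of serum response factor in the actin cytoskeleton were also higher more often than lower. Of 30 tested members 15 (50%) were called higher and 3 (10%) lower, beside 15.1% and 20.9% of all genes. The median was 0.20. Itga5, the fibronectin receptor subunit alpha 5, gave 182, 166 and 156 early and 2359, 1809 and 1679.7 late (3.48 ± 0.15, adjusted p = 7.49e-06). Fhl2, a LIM-domain cofactor, gave 563, 499 and 684 early and 2695, 2193 and 1876 late (1.94 ± 0.16). Ankrd1, a muscle ankyrin protein, gave 1191, 1356 and 2132 early and 5313, 4789.9 and 4534 late (1.69 ± 0.19). Fhl2 and Ankrd1 were highest at 120 min.

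Acta1, the skeletal alpha-actin with the CArG box shown above, gave 30.1, 43.2 and 47.9 early and 384, 359.6 and 311 late (2.99 ± 0.20). Pdlim7 and Mical2 rose by 1.49 and 1.45, and Filip1l fell by 1.29. Vcl (vinculin) rose by 0.28, and its sign turned with trimmed mean scaling, at -0.03. Actb gave 7418, 7912 and 8231 early and 8342, 8342 and 8506 late and did not pass (adjusted p = 0.166), but another probe set was called lower at -1.38 (adjusted p = 0.0123), and the 3′ to 5′ ratio of its control probe sets differed between the groups as given above.

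Proteases and their inhibitors moved in both directions. Of 21 tested genes of this group 7 (33.3%) rose and 6 (28.6%) fell, beside 15.1% and 20.9% of all genes. Plaur, the urokinase receptor with the AP-1 site shown above, gave 140.3, 178 and 307 early and 2461, 1999 and 2041 late (3.42 ± 0.25, adjusted p = 6.50e-05). Timp1, an inhibitor of metalloproteinases, gave 536, 613 and 539.6 early and 2648, 3047 and 3804 late (2.47 ± 0.14). Mmp13, a collagenase, gave 30.4, 20.5 and 50.5 early and 253, 295 and 492 late (3.20 ± 0.33). All 3 were raised at every late time.

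F3, the tissue factor that starts coagulation, gave 413, 380.2 and 657 early and 3201, 1970.1 and 1531 late (2.17 ± 0.28), highest at 120 min. The aggrecanase family members Adamts5, Adamts1 and Adamts9 went the other way. Adamts5 gave 2366, 2312 and 2321 early and 717, 238 and 169 late (-2.90 ± 0.43), Adamts1 gave 2309, 2682 and 3492 early and 831, 349.7 and 292 late (-2.65 ± 0.35), and Adamts9 fell by 2.13. Mmp11 and Mmp2 fell by 1.55 and 0.61.

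In the extracellular matrix 9 of 35 tested genes (25.7%) rose and 10 (28.6%) fell, with a median of -0.06. Over all genes 15.1% rose and 20.9% fell. The basement membrane collagen gene Col4a1 gave 1461, 1389 and 1369 early and 4051, 5133 and 5063 late (1.74 ± 0.10), Col4a2 rose by 1.24 and the laminin gene Lamc1 by 1.38, while Lamb1, another laminin gene, gave -0.03 and did not pass. Cd44, the hyaluronan receptor, gave 1096, 1116 and 1133 early and 3740.3, 5102 and 5904 late (2.11 ± 0.15), and Has1, a hyaluronan synthase below the filter early, gave 38.9, 67.0 and 51.7 late. The fibrillar and elastic components Col3a1, Col1a2, Fbln5 and Eln fell by 0.74, 0.32, 0.30 and 0.69, Eln losing its call without the 15 (0.095), 30 (0.078), 180 (0.069) or 240 min (0.054) array. Lum, a small proteoglycan, gave 3085, 2839 and 3036 early and 1658, 1159.9 and 1173 late (-1.18 ± 0.14).

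Notch pathway genes were mostly lower or unchanged in call. Of 21 tested members 7 (33.3%) fell and 3 (14.3%) rose, with a median of -0.24. Over all genes 20.9% fell and 15.1% rose. Hey2, the gene deleted in the other genotype, gave 101, 102 and 113 early and 14.0, 19.3 and 16.6 late (-2.36 ± 0.22, adjusted p = 1.71e-04). Its late values were at the filter. Jag1, a Notch ligand, gave 4152, 4130.1 and 4181 early and 1778, 1912 and 1832 late (-1.17 ± 0.07, adjusted p = 2.54e-05). Notch1, by contrast, gave 64.0, 98.2 and 55.8 early and 279, 254 and 230.1 late (1.78 ± 0.22).

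Hes1 rose by 0.65 with 1 overlapping array, and its call was lost without the 0 (0.14), 15 (0.15), 120 (0.068) or 180 min (0.15) array. Notch3 and Heyl gave -0.24 and -0.44 and did not pass. Rbpj, the DNA-binding partner of all Notch receptors, fell by 0.54. Dll1 and Hes6 fell by 0.81 and 1.11, and the Fringe enzyme Lfng rose by 0.51.

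Several known targets of BMP signalling fell. In the BMP and TGF-beta list 11 of 31 tested members (35.5%) fell and 8 (25.8%) rose, with a median of -0.19. Over all genes 20.9% fell and 15.1% rose. Besides Atoh8, the inhibitors of differentiation Id3, Id2 and Id1 were among the fallen. Id3 gave 3832, 3852 and 4434 early and 902, 645 and 567 late (-2.54 ± 0.16, adjusted p = 3.99e-05), and Id2 gave 1057, 1203 and 1459 early and 299, 268 and 175 late (-2.33 ± 0.21). Id1 gave 2047, 2222 and 2492 early and 863, 1068 and 1047 late (-1.18 ± 0.12). In each the highest late value was below the lowest early one.

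Smad6, an inhibitory Smad induced by BMP, gave 615, 603 and 632 early and 65.7, 148 and 182 late (-2.30 ± 0.32). Bmp4, a ligand, gave 4479, 4348 and 4378 early and 1343, 1609 and 1304 late (-1.64 ± 0.09, adjusted p = 2.54e-05). The secreted antagonists Fst (follistatin), Fstl3 and Grem1 rose, by 1.48, 1.52 and 0.69. Tgif1, a corepressor of TGF-beta signalling, gave 402, 434 and 578 early and 1917, 1413 and 1960.5 late (1.89 ± 0.18), and Smad7 rose by 0.60.

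Clock genes were called in both directions. Of 19 tested members 7 (36.8%) rose and 4 (21.1%) fell, beside 15.1% and 20.9% of all genes. The share that fell was thus near that of all genes. Arntl (Bmal1), an activator of the clock, gave 113, 98.4 and 91.7 early and 576, 705 and 579.6 late (2.56 ± 0.15, adjusted p = 2.76e-05). Dbp, an output gene, gave 656, 611 and 485 early and 119.6, 65.2 and 82.5 late (-2.68 ± 0.23). Nfil3, the repressor that opposes Dbp, gave 289.8, 313 and 1184 early and 3520.0, 1893 and 1449.7 late (2.15 ± 0.52), a call lost without the 15 min array (0.052). Cry1 and Per2 rose by 1.41 and 1.06, Per3 fell by 1.95, and Per1 and Nr1d1 gave -0.17 and -0.30 and did not pass.

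Hox genes, which keep the positional identity of a cell, were the list with the lowest median, -1.21. Of 18 tested members 13 (72.2%) fell and 0 rose, beside 20.9% and 15.1% of all genes. At least 2-fold falls were called for 11, beside 5.65% of all genes. At an unadjusted limma p under 0.05, 14 were lower and 0 higher. Hoxa5 gave 725, 748 and 764 early and 172, 186 and 184 late (-2.02 ± 0.12, adjusted p = 2.74e-05), and Hoxb5 gave 489, 458 and 346 early and 114, 102 and 78.1 late (-2.08 ± 0.20). Hoxb6 gave 851, 868 and 768 early and 306, 303 and 284 late (-1.46 ± 0.12). Their late values lay close together and below the early range. Hoxa7 gave 183, 171 and 224 early and 78.0, 44.4 and 5.67 late (-2.49 ± 0.63), a call lost without the 30 min array (0.059). Hox genes of 1 cluster lie side by side in the genome and are not independent.

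Interferon-stimulated genes were lower where they were called: 8 of 26 tested members (30.8%) fell and 0 rose, with a median of -0.35. Over all genes 20.9% fell and 15.1% rose. At an unadjusted limma p under 0.05, 11 were lower and 1 higher. Over all genes 5890 of 12816 had such a p in either direction. These counts together were near that share. Ifit2 gave 717, 698 and 834 early and 279, 147 and 155 late (-1.98 ± 0.23), and Ifit3 gave 919.9, 933 and 955 early and 404, 243 and 179.5 late (-1.83 ± 0.25). Both were lower at 180 and 240 min than at 120 min.

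Of 33 DNA replication genes 9 (27.3%) fell and 1 rose, and of 33 mitotic genes 4 (12.1%) fell and 2 rose, beside 20.9% lower and 15.1% higher over all genes. The medians of the lists were -0.47 and -0.61. Cdk1 gave 228, 260.4 and 214 early and 149.6, 90.3 and 104 late (-1.03 ± 0.20, adjusted p = 0.00542). Pcna gave 2624, 2808 and 3228 early and 3618, 3753 and 3932 late (0.39 ± 0.09, adjusted p = 0.00925). Mki67 and Top2a gave -1.03 and -0.75 and did not pass (adjusted p = 0.0597 and 0.0514); both did without the 120 min array, at -1.47 (0.0016) and -1.07 (0.00047), and with trimmed mean scaling, at -1.23 (0.029) and -0.89 (0.027). Another Top2a probe set was called, at -0.92 (adjusted p = 0.0266).

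Among CDK inhibitors and G1 cyclins 6 of 25 (24%) rose and 5 (20%) fell, with a median of -0.21. Over all genes 15.1% rose and 20.9% fell, so the share that fell was near that of all genes. Cdkn1a (p21) gave 1231, 1506 and 2300.3 early and 4230.0, 3329 and 3352 late (1.15 ± 0.21), in the opposite direction to Cdkn1b. Cdkn2d and Cdkn2c fell by 1.29 and 0.84. Ccnd1 (cyclin D1) gave 4230.0, 4282 and 3869 early and 3654, 4814 and 5629.8 late and did not pass (0.17 ± 0.14); without the 120 min array it did, at 0.34 (0.011). Ccne1 gave 0.32 and did not pass.

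Smaller groups were mixed. Of 18 regulators of mRNA decay 4 (22.2%) rose and 4 (22.2%) fell, beside 15.1% and 20.9% of all genes. Zfp36 gave 456, 1178 and 3849 early and 1081, 719.8 and 805 late. Btg2 gave 503, 2393 and 6516 early and 2057, 1009 and 1078 late. Both were highest at 30 min and not called. Of 19 genes of G-protein signalling 6 (31.6%) rose and 5 (26.3%) fell. The prostaglandin receptor Ptger4 gave 27.6, 36.1 and 66.8 early and 558, 320.1 and 298 late (3.06 ± 0.33), and the sphingosine 1-phosphate receptor S1pr3 gave 23.6, 15.8 and 12.7 early and 69.9, 163 and 183 late (2.61 ± 0.37). Rgs2, which switches off Gq signalling, rose by 2.01.

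Markers of other cell types moved in a few cases. Of 5 leukocyte markers in the signal check, Csf1r, the receptor of Csf1, gave 34.3, 23.2 and 48.5 early and 125, 319 and 333 late (2.64 ± 0.39), while Itgam and Cd3e stayed below the filter on all arrays, Ptprc exceeded it on 1 array and Emr1 on 5; the summed signal of the set was 65.2 to 98.5 early and 184 to 372 late. The summed signal of 5 endothelial markers was 75.2 to 91.0 early and 57.3 to 78.1 late, and Flt1, a VEGF receptor outside that set, was below the filter early and gave 42.9, 95.1 and 106 late, at least 4.72-fold above it. The summed signal of 5 adventitial fibroblast markers was 318 to 430 early and 97.5 to 139 late, with Pdgfra as the member that fell. Cd34 was above the filter on all arrays and overlapped, at 42.2, 30.1 and 25.4 early and 41.6, 38.5 and 38.6 late. Dpt was below the filter throughout, and Pi16 and Clec3b exceeded it on 1 array each. Of the wider list of 10 such markers 5 (50%) fell and 0 rose, beside 20.9% and 15.1% of all genes. Those that fell were Pdgfra, Lum, Dcn, Col14a1 and Pcolce. The other 5 were not called, and the highest difference in the list was 0.56. The keratins Krt19, Krt8 and Krt18 rose by 2.61, 2.15 and 2.11, while Msln gave 0.03 and Upk3b gave -0.27. Fewer cells of a type and less RNA per cell cannot be told apart in these bulk samples, and the part of cell composition in the results was not tested.

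**Figure D3:**
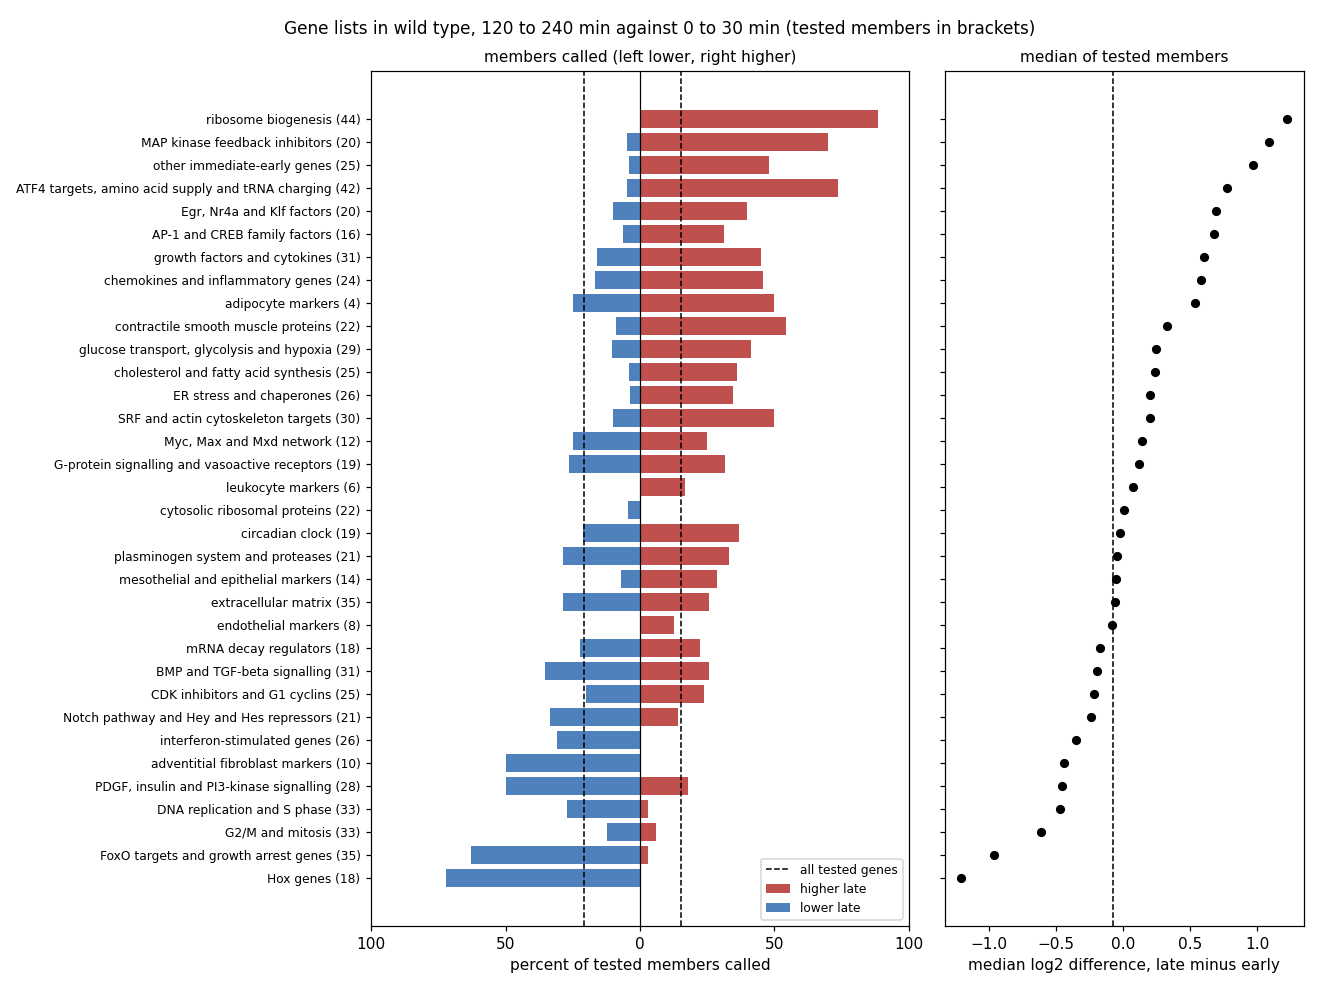
For each of 34 gene lists (tested members in brackets), the left panel gives the percent of tested members called higher (right of 0) or lower (left of 0) in the late wild-type arrays, and the right panel the median log2 difference, late minus early. Dashed lines mark all tested genes, at 15.1% higher, 20.9% lower and a median of -0.07. Ribosome biogenesis has 39 of 44 members higher, and Hox genes have 13 of 18 lower.

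The response of wild-type cells was set against that of Hey2 knockout cells, treated and harvested at the same times, to see which parts of it differed by genotype. In a fit of 12 arrays, 6 of each genotype, 13913 genes were tested for a difference between the wild-type and the knockout response. The difference was called for 110 genes (0.791%), 67 above 0 and 43 below. In the same fit 15.8% of genes rose and 22.7% fell in wild type, and 9.02% rose and 11% fell in the knockout. Among genes called in both genotypes, 2428 changed in the same direction and 4 in opposite directions. Of the 110 genes, 99 had the larger change in wild type. The share of all tested genes with the larger change in wild type was not counted. More of them were called in wild type than in the knockout, so the 99 are not a trait of these genes alone.

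The 6 genes with the smallest p are shown in the plot of both genotypes, and their differences were chosen for that. Piezo1, a mechanically gated cation channel, gave 706, 807 and 878 early and 2025, 2129 and 2113 late in wild type and 2278, 2678 and 2239 early and 2804, 2555 and 2466 late in the knockout, a response difference of 1.27 ± 0.14 (adjusted p = 0.00437). Spry4 gave 618, 452 and 678 early and 441, 553 and 611 late in the knockout against its wild-type rise given above (2.36 ± 0.29, adjusted p = 0.00734). Lif gave 379, 428 and 684 early and 520.0, 579.7 and 614 late in the knockout (3.24 ± 0.45, adjusted p = 0.0112). For these 3 genes the knockout arrays were already high in the early group, above every early wild-type array.

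Acta1 gave 16.7, 26.3 and 19.8 early and 32.1, 28.2 and 38.5 late in the knockout, which stayed below the wild-type late level throughout (2.43 ± 0.30, adjusted p = 0.00734). Ddit4l, a relative of Ddit4, gave 415, 417 and 356 early and 83.6, 76.0 and 58.3 late in wild type and 792, 839 and 816 early and 413, 466 and 511 late in the knockout (-1.57 ± 0.20, adjusted p = 0.00777). Frmd4b, a FERM-domain protein, gave 2301, 2048 and 2074 early and 589, 823 and 535 late in wild type and 2221, 2217 and 2289 early and 1679, 2505 and 2219.9 late in the knockout (-1.65 ± 0.22, adjusted p = 0.00903). Frmd4b started at a like level in both genotypes and was lower on every late wild-type array, while the late knockout values lay on both sides of the early ones.

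**Figure D4:**
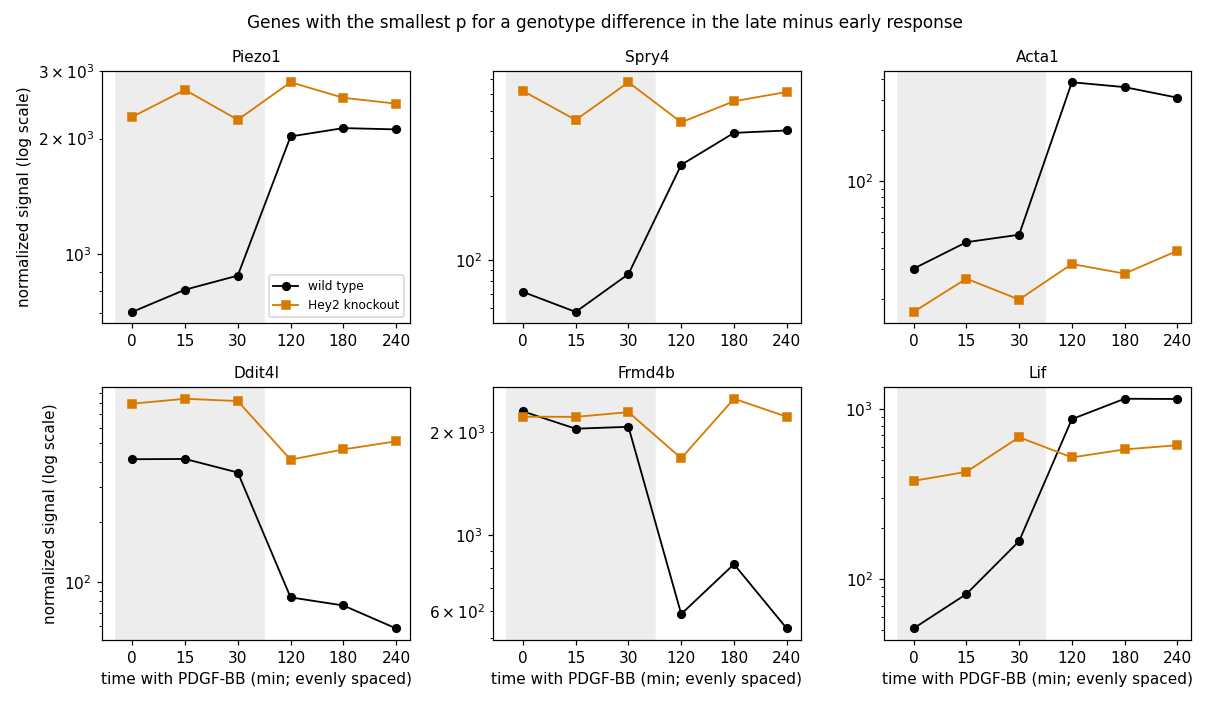
Normalized signal (vertical axis, log scale, arbitrary units; the range differs by panel) of the 6 genes with the smallest p for a genotype difference in the response, on the 6 wild-type arrays (black circles) and the 6 Hey2 knockout arrays (orange squares), 1 point per array, early arrays on a grey ground, times evenly spaced. Piezo1 rises from 706 at 0 min to 2113 at 240 min in wild type and lies between 2239 and 2804 in the knockout.

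Several members described above were also among the 110. Pdgfb gave 3.97 in wild type and 2.21 in the knockout (1.76 ± 0.26, adjusted p = 0.0120). Jag1 gave -1.17 in wild type and -0.36 in the knockout (-0.81 ± 0.12, adjusted p = 0.0121), and Notch1 was called with adjusted p = 0.0415. Ccng2 gave -2.88 and -1.83 (-1.06 ± 0.17, adjusted p = 0.0168). Smtn gave 1.07 and -0.28 (1.35 ± 0.23, adjusted p = 0.0191), and Fhl2 1.94 and 0.57 (1.37 ± 0.22, adjusted p = 0.0178).

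Mycl gave 2.69 in wild type and -0.72 in the knockout (3.41 ± 0.58, adjusted p = 0.0184). Dkk1 gave -3.59 and -0.74 (-2.85 ± 0.51, adjusted p = 0.0226). Knockout signals of both genes were near or below the filter of 16. Those of Mycl were 24.4, 5.94 and 15.7 early and 10.2, 5.8 and 4.11 late. Those of Dkk1 were 16.5, 8.32 and 20.0 early and 0.96, 10.7 and 11.7 late. A fall of Dkk1 as large as in wild type could therefore not be measured in the knockout. The Hey2 probe set itself gave 34.3, 63.3 and 42.2 early and 23.3, 34.8 and 41.0 late in the knockout and was called (-1.93 ± 0.36, adjusted p = 0.0258); the labels do not say whether it covers the deleted sequence, so it is no check of the deletion. Of the 44 tested ribosome assembly genes 0 were called for a genotype difference by limma, beside 0.791% of all genes. With so small a share over all genes, this count does not set the list apart. At an unadjusted limma p under 0.05 there were 2, and the share over all genes was not counted. The list's median was 1.22 in wild type and 0.98 in the knockout. The genotype rests on cells whose number of isolates per genotype is not stated, so genotype and isolate cannot be told apart. The count moved with single arrays, from 18 without the knockout 180 min array to 340 without the wild-type 120 min array, and was 594 with the time point as a block.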

How the data were processed

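RNA was measured on Mouse430_2 Affymetrix arrays, 16 in all, 1 per genotype and time. The authors deposited MAS5 expression values as linear signal intensity per probe set, per the submitters' processing notes; any scaling target and the software version were not given in the sources used here. Arrays were quantile normalized over all 16. Of 45101 probe sets, 64 controls, 932 with several symbols and 9160 with none were left out; 34945 had 1 symbol, and 34741 were matched to RefSeq. The brightest probe set stood for a gene. A gene was tested if it exceeded a signal of 16 (40th percentile) on at least 3 arrays.

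To each normalized intensity 4.856, its 20th percentile, was added, and differences in log2 were tested with limma 3.58.1 in R 4.3.3 (lmFit, eBayes with an intensity trend, 4 residual degrees of freedom, 8 in the fit of 12 arrays). P-values were adjusted by the Benjamini-Hochberg method over all genes tested, with a threshold of 0.05. The code was tested on simulated data. Array data hold no counts, so the number of arrays limits the precision. A gene not above 16 on any array of a group is given as at least a fold against 16.

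The members, the 34 gene lists and the tests were chosen with earlier results of these data known. Named genes are the 10 largest increases and 10 largest decreases among called genes whose early and late groups do not overlap. They also include the core members and up to 5 called members with the largest difference in each list. The 6 smallest p-values of the genotype difference were added, and 52 other genes were named after their values were seen. A few single genes are not reported here. Alternatives were the scaling, the offset, the filter, the probe set rule, the fit and leaving out each array.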

Additional observations from a re-analysis of the deposited data

Results flagged for a closer look

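The response differed between genotypes by the test of the difference itself for 110 genes. The 6 with the smallest p were Piezo1, with a wild-type minus knockout difference of 1.27, Spry4 (2.36), Acta1 (2.43), Ddit4l (-1.57), Frmd4b (-1.65) and Lif (3.24). All 6 differed at an adjusted p of 0.0112 or less in limma's test. The early knockout arrays were all higher than the early wild-type arrays for Piezo1, Spry4, Lif and Ddit4l. They were all lower for Acta1 and overlapped for Frmd4b. That early difference was not tested, and its share over all genes was not counted. The early values also enter the test by which the 6 were chosen.

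Both wild-type arrays outside the comparison carried the response on the scale where the early mean is 0 and the late mean is 1. The library labelled 60 min stood at 0.944 and the library labelled 480 min at 0.303. The early arrays at 0, 15 and 30 min stood at -0.02, 0.00 and 0.02, and the late arrays at 120, 180 and 240 min at 0.89, 1.04 and 1.08. The late and early arrays define the scale, so their own places on it are a description.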

How the results depend on the processing

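The count of 4613 genes fell to 208 with the signals as deposited (168 higher, 40 lower), to 1574 against the 0 min array alone, where the lone array is assumed to vary like the other arrays, to 181 in a test against a 2-fold change, and to 5 with the 60 and 480 min arrays added as labelled. It was 7278 when every probe set was tested. Trimmed mean scaling gave 4738, of which 35.2% were higher. With 1 array left out it ranged from 2946 to 5721. The 1424 genes called at 2-fold or more became 208 with the signals as deposited, 181 in the test against a 2-fold change, 5 with the 60 and 480 min arrays added, and 1210 to 1787 with 1 array left out. The 110 genotype differences became 1 with the signals as deposited, 13 without the intensity trend and 594 with the time point as a block, and ranged from 18 to 340 with 1 array left out. The cause of each shift was not tested. The other alternatives kept all 3 counts within 1.5 times.

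The sign turned for Col1a1 with the signals as deposited (0.0668), for Acta2 (-0.17) and Vcl (-0.0334) with trimmed mean scaling, and for Col14a1 (0.0051), Lpl (0.117), Tgfb2 (0.277), Pdgfd (0.0752) and Fbln5 (0.0084) with the 60 and 480 min arrays added. Of 345 named genes, 275 were called; with their direction kept, 179 calls were lost with the signals as deposited and 265 with the added 60 and 480 min arrays. The list median relative to all genes turned sign for ribosomal proteins, proteases and mesothelial markers under both other scalings, for clock genes as deposited and for the extracellular matrix with trimmed means. It also turned for CDK inhibitors and G1 cyclins without the 240 min array (-0.143 to 0.0511), for leukocyte markers without the 0 min array (0.143 to -0.025), for mRNA decay regulators with the 60 and 480 min arrays added (-0.0991 to 0.0817), for clock genes without the 15, 120 or 180 min array, and for endothelial markers, proteases, the extracellular matrix and mesothelial markers, all within 0.03 of the median of all genes in the main setting, under other alternatives. No paired analysis was possible because the early and late wild-type arrays share no time and no stated animal or culture; the block above pairs genotypes by time.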
